A study of Homo sapiens with 18 samples.

Results

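The SMAD and ID feedback genes are 9 genes whose transcripts are raised by signalling of the TGF-beta family and whose products hold that signalling back or carry its effect to other transcription factors: SMAD7, SMAD6, SKIL, PMEPA1, BAMBI, ID1, ID2, ID3 and ID4. They were taken as the array rows that the platform annotation assigns to exactly one of these symbols. Each gene had 1 such row, and all 9 were among the 16111 genes tested. Transcript levels came from human embryonic kidney cells of the line HEK293 that overexpress murine TLR5, a receptor which binds bacterial flagellin. All cells, mock included, carried this receptor and grew in SILAC media with heavy, medium or light amino acids, and the labels do not say which array had which amino acids, so medium and group cannot be told apart. The groups were ST 120 min, EcN 120 min, mock 120 min, ST 60 min, EcN 60 min and mock 60 min, with 3 arrays each, lettered A, B and C, and 18 in all. ST is flagellin isolated from Salmonella Typhimurium SL1344, EcN is flagellin isolated from E. coli Nissle, each at a concentration set by a multiplicity of infection of 10, and mock is the control, labelled with no further detail. The labels of the ST arrays conflict, since their descriptions name mock while their titles and treatment fields say ST; the titles were followed.

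Ligands of the TGF-beta family bind paired serine/threonine kinase receptors, which phosphorylate SMAD proteins. The TGF-beta and activin branch works through SMAD2 and SMAD3, the BMP branch through SMAD1, SMAD5 and SMAD9, and both join SMAD4. SMAD7 and SMAD6 are inhibitory SMADs that occupy or help degrade the receptors, SMAD6 mainly those of the BMP branch. SKIL (SnoN) is a co-repressor that binds SMAD complexes, PMEPA1 is a membrane protein that keeps SMAD2 and SMAD3 from the receptor, and BAMBI is a pseudoreceptor without a kinase domain. ID1 to ID4 are helix-loop-helix proteins that lack a DNA-binding region and hold back E proteins such as TCF3.

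Levels below are RMA values on a log2 scale, and changes are log2 fold changes with their standard error from the limma fit. A gene is called, and is said to have risen or fallen, at a Benjamini-Hochberg adjusted p under 0.05 over all genes tested. The labels call the replicates biological without saying whether they came from separate cultures, so the tests measure only the spread between these arrays. The 3 arrays per group set the precision of every value. In bulk RNA, fewer cells making a transcript and less transcript per cell cannot be told apart.

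Of 3 NF-kB targets, NFKBIA, TNFAIP3 and CXCL8, all stood high on 5 arrays that do not follow the groups: the 4 flagellin arrays lettered C, and mock 120 min A. CXCL8 was between 5.62 and 8.76 on these, against 2.16 to 2.90 on each of the other arrays. Where a call changed without the arrays lettered C, or without those 5 arrays, the result is also given without them. Of 7 embryonic kidney line markers, 6 (PAX2, LHX1, NEFL, NEFM, EPCAM and CDH2) passed the filter on low values, and their mean level lay between 6.54 and 6.92 on every array. Of 6 leukocyte, 6 fibroblast and 3 endothelial markers, 2, 3 and 1 passed, and PTPRC, CD3E, DCN, PECAM1 and CDH5 did not. The 4 intestinal markers averaged 4.78 to 4.94 on ST 60 min and 4.65 to 4.88 on EcN 60 min arrays, against 5.06 to 5.08 on mock 60 min arrays, and 4.73 to 4.98 on mock 120 min arrays. Of the 4, 0 were called with ST and 1 with EcN at 60 min, and their part in the results was not tested.

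Promoter sequences, 250 bases before to 50 after the RefSeq start site, were found for all 9 genes in the RefSeq table of GRCh38.p14. They were searched on both strands for CAGAC, the SMAD box that SMAD3 and SMAD4 bind, for its palindrome GTCTAGAC, and for GGCGCC, a GC element bound by BMP-activated SMADs. These motifs share no base at any match printed here. CAGAC was in the window of 5 of the 9 genes, SMAD7, SKIL, BAMBI, ID3 and ID4, and in 45.3% of 35116 promoters of this length. GGCGCC was in that of 3, SKIL, PMEPA1 and BAMBI, and in 19.2% of promoters. GTCTAGAC was in the SMAD6 window alone, and in 0.202% of promoters. Shown are the genes called below, SMAD7 (chr18:48950916-48951215, minus strand) and ID4 (chr6:19837120-19837419, plus strand), with SMAD6 (chr15:66701986-66702285, plus strand) for its palindrome and BAMBI (chr10:28677271-28677570, plus strand), which has 3 GC elements. Each reads 5′ to 3′ along its gene, with the matches in capitals.
SMAD7: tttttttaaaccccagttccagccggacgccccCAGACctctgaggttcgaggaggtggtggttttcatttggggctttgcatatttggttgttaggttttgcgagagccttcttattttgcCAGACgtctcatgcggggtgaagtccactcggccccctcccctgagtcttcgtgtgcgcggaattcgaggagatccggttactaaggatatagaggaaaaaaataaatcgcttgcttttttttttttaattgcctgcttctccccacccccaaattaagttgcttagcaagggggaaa
ID4: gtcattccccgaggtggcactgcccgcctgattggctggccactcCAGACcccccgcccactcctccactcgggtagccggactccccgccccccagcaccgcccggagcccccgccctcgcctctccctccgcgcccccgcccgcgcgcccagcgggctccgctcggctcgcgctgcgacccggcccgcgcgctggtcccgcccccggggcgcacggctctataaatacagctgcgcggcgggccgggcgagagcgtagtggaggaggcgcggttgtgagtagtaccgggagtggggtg
SMAD6: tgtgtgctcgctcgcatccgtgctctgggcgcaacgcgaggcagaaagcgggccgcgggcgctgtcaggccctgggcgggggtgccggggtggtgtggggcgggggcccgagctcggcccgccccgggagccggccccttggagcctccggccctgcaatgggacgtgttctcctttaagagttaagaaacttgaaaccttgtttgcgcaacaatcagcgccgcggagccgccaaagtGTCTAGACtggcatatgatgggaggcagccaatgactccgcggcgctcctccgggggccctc
BAMBI: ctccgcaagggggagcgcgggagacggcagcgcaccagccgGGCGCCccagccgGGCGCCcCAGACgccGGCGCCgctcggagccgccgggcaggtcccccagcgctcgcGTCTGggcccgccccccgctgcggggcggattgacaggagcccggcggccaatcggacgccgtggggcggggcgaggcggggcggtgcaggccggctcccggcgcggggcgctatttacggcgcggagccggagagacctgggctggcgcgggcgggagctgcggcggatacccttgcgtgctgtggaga

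The SMAD7 window held CAGAC with its first base at -217 and at -128 from the start site, and the ID4 window at -205. In SMAD6 the palindrome began at -12. In BAMBI the GC elements began at -209, -196 and -181, and CAGAC or its complement at -189 and -140. A match describes these letters and is no evidence of binding.

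**Figure D1:**
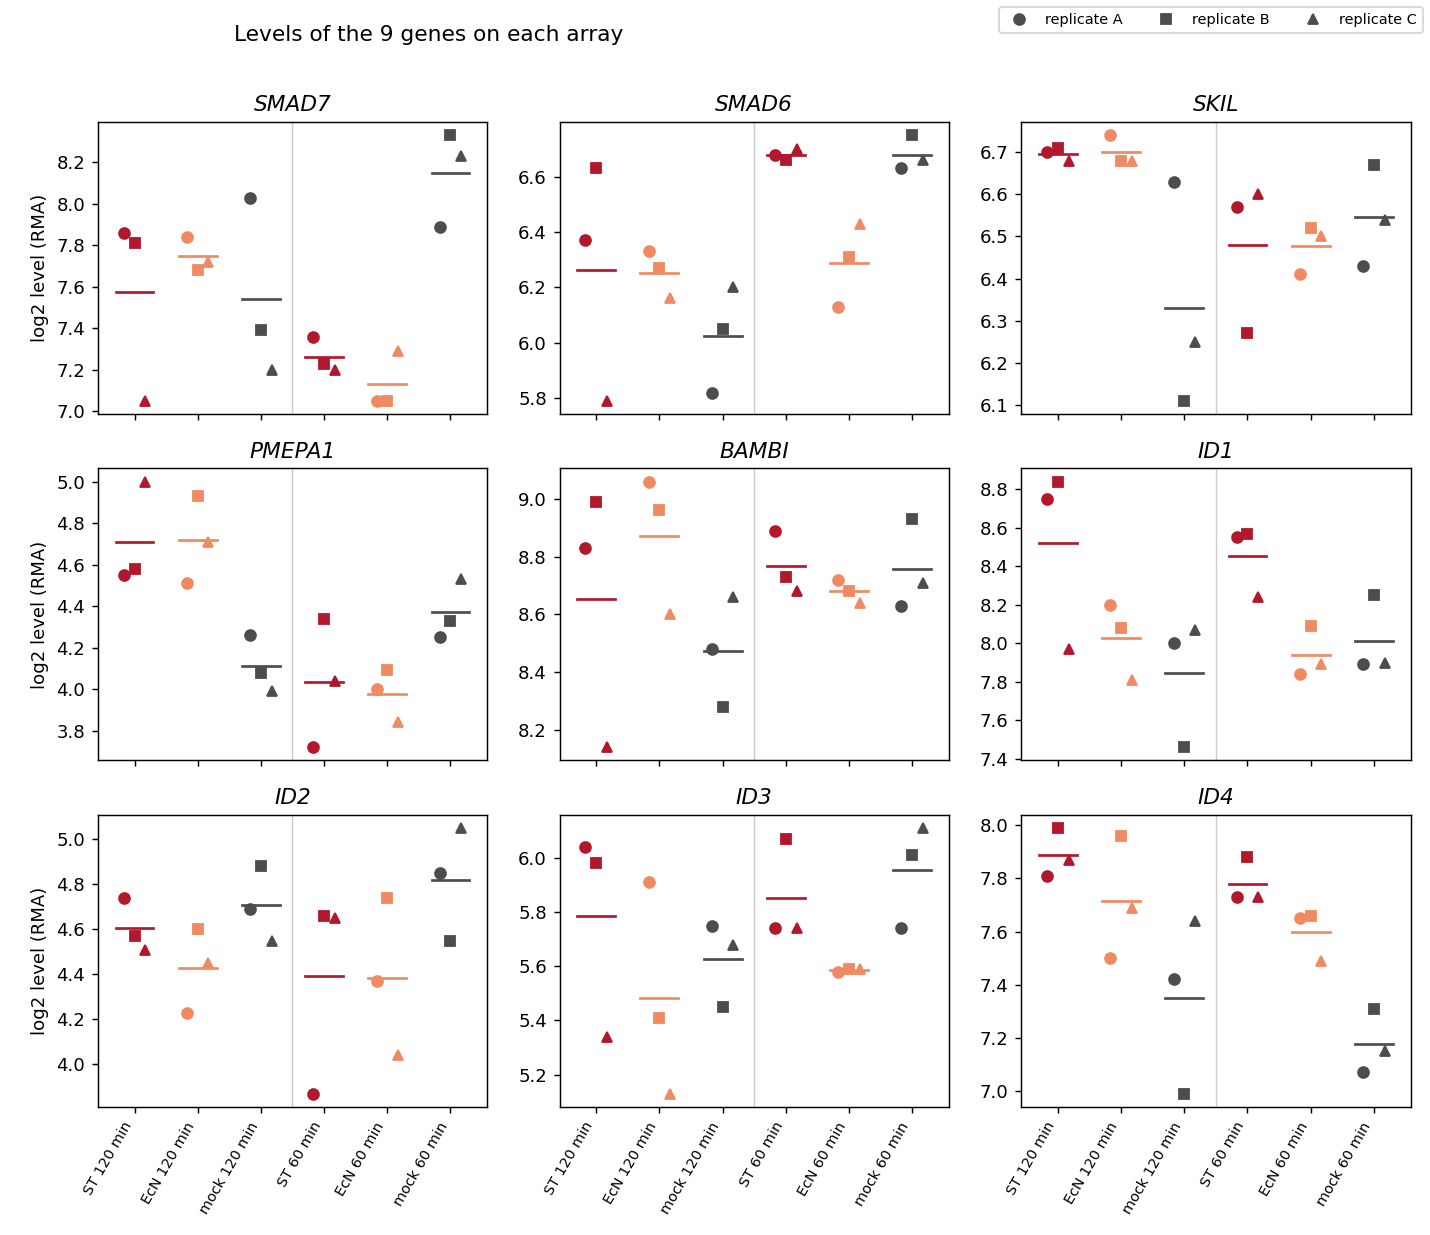
Log2 level (RMA) of each of the 9 genes on every array, by group, with a horizontal bar at the group mean and a symbol for each replicate letter. SMAD7 was between 7.05 and 7.36 on the 6 flagellin arrays at 60 min, against 7.89 to 8.33 on the mock arrays, and ID4 was above mock on all 6.

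The comparison of flagellin with mock at 60 min asked which of these genes respond early to the receptor's ligand. SMAD7 fell with both flagellins, ID4 rose with ST, and the other genes did not pass the test. SMAD7 (transcript cluster 16855127) stood at 7.36, 7.23 and 7.20 on ST 60 min A, B and C and at 7.05, 7.05 and 7.29 on the EcN 60 min arrays, against 7.89, 8.33 and 8.23 on the mock 60 min arrays. Every flagellin array lay below every mock array. The fall was 1.85-fold with ST (-0.88 ± 0.21, adjusted p = 0.0265 from limma) and 2.03-fold with EcN (-1.02 ± 0.21, adjusted p = 0.0197).

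ID4 (transcript cluster 17005223) stood at 7.73, 7.88 and 7.73 on ST 60 min arrays and at 7.65, 7.66 and 7.49 on EcN 60 min arrays, against 7.07, 7.31 and 7.15 on mock 60 min arrays. Again no flagellin array overlapped mock, in the opposite direction to SMAD7. The rise was 1.52-fold with ST (0.61 ± 0.15, adjusted p = 0.0289), while the EcN difference of 0.42 ± 0.15 did not pass (adjusted p = 0.0892). The difference between these effects is ST over EcN, 0.18 ± 0.15 (adjusted p = 0.738, 95% interval -0.13 to 0.49).

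SMAD6 (transcript cluster 16802232), the other inhibitory SMAD, was level with mock after ST: it stood at 6.68, 6.66 and 6.70 on the ST arrays, against 6.63, 6.75 and 6.66 in mock. On the EcN 60 min arrays it was 6.13, 6.31 and 6.43, below all mock arrays, at -0.39 ± 0.16 (adjusted p = 0.145). PMEPA1 (transcript cluster 16920671) was 3.72, 4.34 and 4.04 on ST and 4.0, 4.09 and 3.84 on EcN arrays, against 4.25, 4.33 and 4.53 on mock arrays. All EcN values were below mock and the ST values overlapped it, with changes of -0.34 ± 0.16 and -0.39 ± 0.16 for ST and EcN (adjusted p = 0.233 and 0.146). SKIL and BAMBI lay within 0.08 of mock on average with either flagellin. Among the other ID genes, ID1 was 0.44 ± 0.21 above mock with ST (adjusted p = 0.23) and 0.07 below it with EcN, and ID2 was 0.42 and 0.43 below it. ID3 (transcript cluster 16683377) differed by -0.37 ± 0.19 with EcN, where its levels of 5.58, 5.59 and 5.59 were all under the 5.74 to 6.11 of mock (adjusted p = 0.251), and by -0.10 ± 0.19 with ST.

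With ST at 60 min the genes called were thus 1 higher and 1 lower of 9, where 5.26% of all genes were called, 360 higher and 488 lower. With EcN 1 of 9 was called, lower, where 6.45% of all genes were called, 496 higher and 543 lower. Arrays of ST and mock did not overlap for 2 of the 9 genes, and 30.2% of all genes did the same. For EcN it was 5 of the 9, 4 of them lower, beside 31.9% of all genes. The median change of the 9 genes was -0.07 with ST and -0.37 with EcN, beside 0.00 and 0.01 over all genes tested. Both comparisons share the mock 60 min arrays, so their resemblance is not independent.

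The SMAD7 call with EcN did not hold without mock 60 min B or C or without any 1 of the EcN 60 min arrays, at a change of -0.93 to -1.10 and an adjusted p between 0.0507 and 0.0719. With ST the call ended without mock 60 min B or C or any 1 of the ST 60 min arrays (-0.80 to -0.93, adjusted p 0.0678 to 0.0981). For ID4 with ST it ended without any 1 of these 6 arrays, mock 60 min A included (0.55 to 0.67, adjusted p 0.0646 to 0.0923). Without the arrays lettered C no call remained: SMAD7 was at -0.82 with ST (adjusted p = 0.106) and -1.06 with EcN (adjusted p = 0.0688), and ID4 at 0.62 with ST (adjusted p = 0.156). Without the 5 arrays with high CXCL8, SMAD7 was called with both (-0.85, adjusted p = 0.0253 and -1.10, adjusted p = 0.00515), SMAD6 was called with EcN as well (-0.46, adjusted p = 0.0425), and ID4 was not (0.63 with ST, adjusted p = 0.0913). ID4 was called with EcN when mock 120 min B was left out (0.42, adjusted p = 0.0462). Over all 16111 genes, 32 were called with ST and 14 with EcN without the arrays lettered C, and 335 and 993 without the 5.

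**Figure D2:**
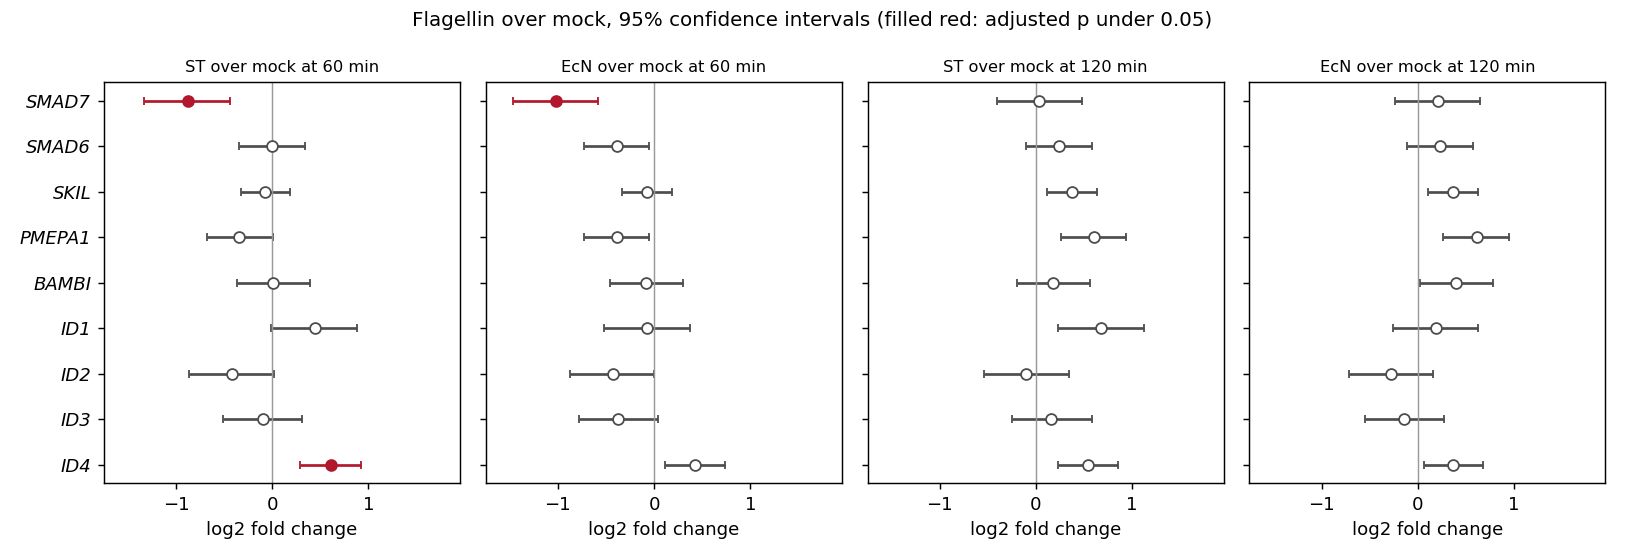
Log2 fold change of each gene over mock (horizontal axis) in 4 comparisons, with bars for the 95% confidence interval of the limma fit. SMAD7 at 60 min and ID4 with ST at 60 min are the filled points, called at an adjusted p under 0.05, and at 120 min PMEPA1 and SKIL lie to the right of 0 with both flagellins without being called.

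At 120 min no gene of the 9 was called against mock with either flagellin, and SMAD7 no longer stood below it. PMEPA1 was 4.55, 4.58 and 5.00 on ST 120 min arrays and 4.51, 4.93 and 4.71 on EcN 120 min arrays, against 4.26, 4.08 and 3.99 on mock 120 min arrays. All 6 flagellin arrays lay above all 3 mock arrays, and neither change passed: 0.60 ± 0.16 with ST (1.52-fold, adjusted p = 0.0889) and 0.61 ± 0.16 with EcN (1.52-fold, adjusted p = 0.0997). SKIL (transcript cluster 16947904) was 6.70, 6.71 and 6.68 on ST arrays and 6.74, 6.68 and 6.68 on EcN arrays, against 6.63, 6.11 and 6.25 on mock arrays. Here too no flagellin array overlapped mock, at 0.37 ± 0.12 with either flagellin (adjusted p = 0.14 with ST and 0.146 with EcN).

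ID4 at 120 min was 7.81, 7.99 and 7.87 on ST arrays, above mock at 7.42, 6.99 and 7.64, while the EcN arrays at 7.50, 7.96 and 7.69 overlapped mock. The changes were 0.54 ± 0.15 with ST (adjusted p = 0.0925) and 0.37 ± 0.15 with EcN (adjusted p = 0.221). ID1 (transcript cluster 16912362) was 8.75, 8.84 and 7.97 on ST arrays and 8.20, 8.08 and 7.81 on EcN arrays, against 8.0, 7.46 and 8.07 on mock arrays. Its change was 0.68 ± 0.21 with ST (adjusted p = 0.12) and 0.19 ± 0.21 with EcN, and ST 120 min C lay inside the mock range. SMAD7 was 7.86, 7.81 and 7.05 on ST arrays and 7.84, 7.68 and 7.72 on EcN arrays, against 8.03, 7.39 and 7.20 on mock arrays, so its groups overlapped. Its changes were 0.03 ± 0.21 and 0.21 ± 0.21, with 95% intervals of -0.41 to 0.48 for ST and -0.24 to 0.65 for EcN.

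BAMBI (transcript cluster 16703563) was 8.83, 8.99 and 8.14 on ST arrays and 9.06, 8.96 and 8.60 on EcN arrays, against 8.48, 8.28 and 8.66 on mock arrays, at 0.18 ± 0.18 and 0.40 ± 0.18 (adjusted p = 0.658 and 0.279). SMAD6 differed by 0.24 ± 0.16 and 0.23 ± 0.16 and ID3 by 0.16 and -0.14 with ST and EcN. ID2 (transcript cluster 16876822) differed by -0.10 and -0.28. The groups of BAMBI and of ID2 overlapped in each of the 7 comparisons of 2 groups.

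Of all genes 0.559% were called with ST at 120 min and 0.0621% with EcN, so 0 of 9 is near the background. At an unadjusted p under 0.05, 4 of the 9 genes lay above mock with ST and 0 below, where 17.6% of all genes passed in either direction. The count was the same with EcN, beside 16.5% of all genes. Arrays did not overlap for 3 of the 9 genes with ST, beside 16.5% of all genes, and for 2 with EcN, beside 17.6%, each of them with flagellin above mock. The median change of the 9 genes was 0.24 with ST and 0.23 with EcN, and 0.00 over all genes tested in both. These comparisons also share their mock arrays.

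Single arrays moved these results in both directions. Without mock 120 min B, ID4 was at 0.36 with ST (adjusted p = 0.437) and 0.18 with EcN (adjusted p = 0.632), SKIL at 0.26 with both (adjusted p = 0.552 and 0.465), and ID1 at 0.48 with ST (adjusted p = 0.516). Without ST 120 min C, the ST differences were 0.48 for SMAD6 (adjusted p = 0.132), 0.43 for BAMBI, 0.39 for ID3, 0.95 for ID1 (adjusted p = 0.0851) and 0.46 for PMEPA1 (adjusted p = 0.233). Without mock 120 min A, the mock array with high CXCL8, SKIL (0.52, adjusted p = 0.0182) and PMEPA1 (0.68, adjusted p = 0.0406) were called with ST. Without mock 120 min C, ID4 was called with both (0.68, adjusted p = 0.0208 with ST and 0.51, adjusted p = 0.0457 with EcN). Without the 5 arrays with high CXCL8, ID1 was the 1 gene called, with ST (1.03, adjusted p = 0.0428).

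ST was set against EcN to ask whether the flagellins differ. No gene of the 9, and 0% of all genes, were called at 60 min or at 120 min. ID1 had the largest difference at both times. It was 8.55, 8.57 and 8.24 on ST 60 min arrays, all above 7.84, 8.09 and 7.89 on EcN 60 min arrays, at 0.51 ± 0.21 (1.42-fold, adjusted p = 0.469, 95% interval 0.07 to 0.95). At 120 min the difference was 0.49 ± 0.21 (adjusted p = 0.385, 95% interval 0.04 to 0.93), and the arrays overlapped. SMAD6 also lay higher on every ST than on every EcN array at 60 min, at 0.39 ± 0.16 (adjusted p = 0.469), and by 0.01 ± 0.16 at 120 min. Arrays of ST lay above those of EcN at 60 min for 4 of the 9 genes (SMAD6, ID1, ID3 and ID4), beside 18% of all genes that did not overlap, and for 0 at 120 min, beside 21.0%. At an unadjusted p under 0.05 ID1 and SMAD6 differed at 60 min, 2 of 9 beside 9.19% of all genes, and ID1 at 120 min, 1 of 9 beside 11.7%. For SKIL and PMEPA1 at 120 min the intervals were -0.26 to 0.26 and -0.35 to 0.34. SMAD7 differed by 0.14 at 60 min and -0.17 at 120 min, BAMBI by 0.09 and -0.22, ID2 by 0.01 and 0.18, ID3 by 0.27 and 0.31, and ID4 by 0.17 at 120 min. At 60 min SKIL differed by 0.01 and PMEPA1 by 0.06. Without ST 120 min C, the 120 min differences were 0.76 for ID1 (adjusted p = 0.332), 0.53 for ID3, 0.25 for SMAD6, 0.09 for SMAD7 and 0.04 for BAMBI.

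The mock groups were compared between the times as labelled. Mock 120 min A is 1 of the 5 arrays with high CXCL8, at 7.53 against 2.46 and 2.26 on mock 120 min B and C. SMAD6 was 5.82, 6.05 and 6.20 on mock 120 min arrays, all below 6.63, 6.75 and 6.66 on mock 60 min arrays, at -0.66 ± 0.16 (1.58-fold, adjusted p = 0.185). SMAD7 was lower by 0.61 ± 0.21 on average (adjusted p = 0.294), with mock 120 min A at 8.03 inside the mock 60 min range and B and C, at 7.39 and 7.20, below it. Mock 120 min C lay inside the range of 7.05 to 7.36 of the flagellin arrays at 60 min, and B just above it. ID4 was 0.18 ± 0.15 higher at 120 min, and the differences of the other 6 genes were -0.22 for SKIL, -0.26 for PMEPA1, -0.28 for BAMBI, -0.17 for ID1, -0.11 for ID2 and -0.33 for ID3. Without mock 120 min B, ID4 was at 0.36, SKIL at -0.11 and ID1 at 0.02, and without mock 120 min C, ID4 was at 0.03 and ID1 at -0.28. No gene of the 9, and 0% of all genes, were called. At an unadjusted p under 0.05, SMAD6 and SMAD7 were lower and 0 genes higher, 2 of 9 beside 12.1% of all genes. Arrays did not overlap for 1 of the 9, SMAD6, beside 12.7% of all genes. Without mock 120 min A, SMAD7 was called (-0.85, adjusted p = 0.0221). Without the 5 arrays with high CXCL8, SMAD7 (-0.85, adjusted p = 0.00958) and SMAD6 (-0.56, adjusted p = 0.0248) were both called, beside 809 of all 16111 genes. Over all settings this total ran from 0 to 979.

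The change of each flagellin's effect between the times was tested directly, as the effect over mock at 120 min minus that at 60 min. SMAD7 and PMEPA1 had the largest shifts. For SMAD7 the effect was 0.03 at 120 min and -0.88 at 60 min with ST, a shift of 0.92 ± 0.30 (adjusted p = 0.368), and 0.21 and -1.02 with EcN, a shift of 1.23 ± 0.30 (adjusted p = 0.185). For PMEPA1 it was 0.60 at 120 min and -0.34 at 60 min with ST, a shift of 0.94 ± 0.23 (adjusted p = 0.31), and 0.61 and -0.39 with EcN, a shift of 1.00 ± 0.23 (adjusted p = 0.185). SKIL shifted by 0.44 ± 0.17 with both, SMAD6 by 0.24 ± 0.23 with ST and 0.62 ± 0.23 with EcN, and ID4 by -0.07 and -0.06. The shifts with ST and EcN were 0.17 and 0.48 for BAMBI, 0.24 and 0.26 for ID1, 0.33 and 0.16 for ID2, and 0.26 and 0.23 for ID3. No gene of the 9, and 0% of all genes, were called in either. At an unadjusted p under 0.05, 3 of the 9 shifted upward with ST (SMAD7, SKIL and PMEPA1), beside 10.7% of all genes, and 4 with EcN, SMAD6 the fourth, beside 12%. Part of each shift is the mock arrays' own change, which both share. For SMAD7 the group mean went from 8.15 at 60 min to 7.54 at 120 min in mock. With ST it went from 7.26 to 7.57, and with EcN from 7.13 to 7.75. For PMEPA1 it went from 4.37 to 4.11 in mock, from 4.03 to 4.71 with ST and from 3.98 to 4.72 with EcN.

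Without mock 120 min A, these 3 genes were called in both: SMAD7 at 1.16 with ST and 1.47 with EcN (adjusted p = 0.0333 and 0.011), SKIL at 0.58 and 0.59 (0.0462 and 0.04) and PMEPA1 at 1.01 and 1.07 (0.0386 and 0.0261). Without the 5 arrays with high CXCL8, SMAD7 alone was called, at 1.39 with ST and 1.56 with EcN (adjusted p = 0.0364 and 0.0128). Of all 16111 genes, 106 with ST and 213 with EcN were then called. Over all settings these totals ran from 0 to 475 with ST and from 0 to 556 with EcN. The total without mock 120 min A is not given on its own, so the 3 calls in that fit have no background beside them.

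**Figure D3:**
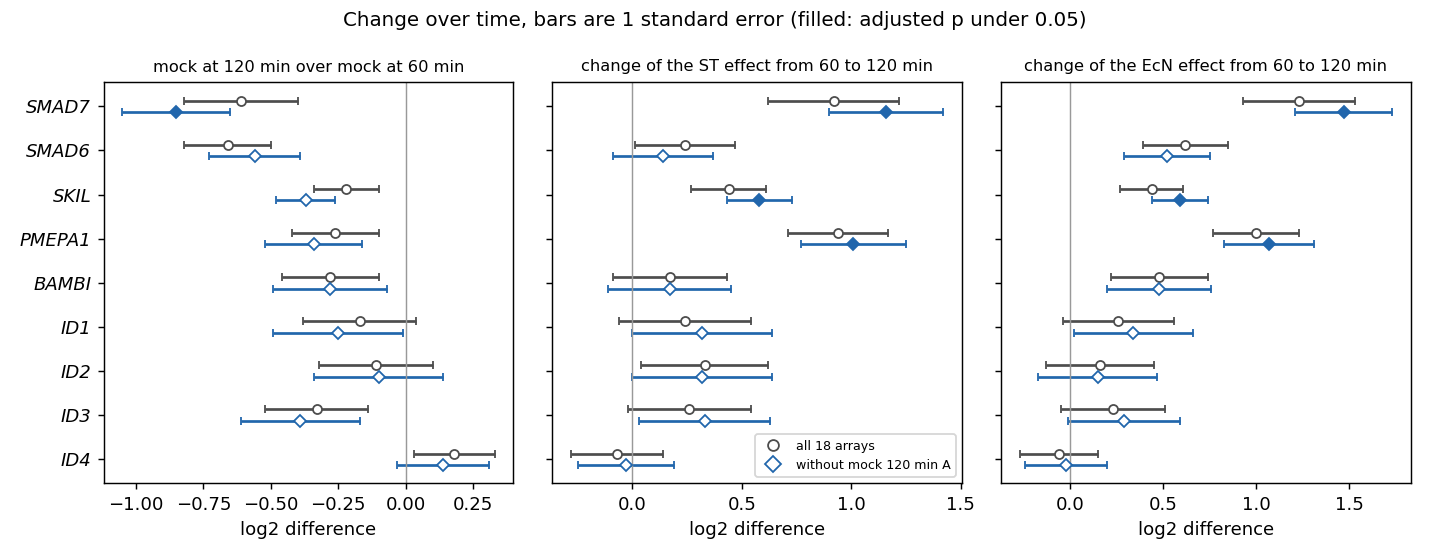
Log2 differences of each gene for mock at 120 min over mock at 60 min and for the change of the ST and EcN effects between the times, with bars of 1 standard error, from all 18 arrays (circles) and without mock 120 min A (diamonds). Filled symbols are called at an adjusted p under 0.05: none with all arrays and, once mock 120 min A is left out, SMAD7, SKIL and PMEPA1 for both effects and SMAD7 for mock.

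Ordered by group mean, SMAD7 was highest in mock 60 min (8.15 ± 0.23, SD, n = 3), apart from the next group, EcN 120 min (7.75 ± 0.09), and from there each group overlapped the next down to EcN 60 min (7.13 ± 0.14). SKIL averaged 6.70 in ST and in EcN 120 min, and both groups lay above mock 60 min, the next. PMEPA1 averaged 4.71 ± 0.25 in ST 120 min and 4.72 ± 0.21 in EcN 120 min. Its ST 120 min arrays (4.55 or higher) were apart from mock 60 min, the next group, while EcN 120 min A (4.51) lay within the mock 60 min range of 4.25 to 4.53. ID1 was highest in ST at 120 and 60 min (8.52 ± 0.48 and 8.45 ± 0.18). The next group, EcN 120 min (8.03 ± 0.20), was apart from ST 60 min and overlapped ST 120 min. SMAD6 was highest in ST 60 min and mock 60 min, at 6.68 in both, apart from EcN 60 min (6.29 ± 0.15). For BAMBI, ID2, ID3 and ID4 each group overlapped its neighbour in the order. The spread within groups was 0.14 for SKIL and 0.18 for ID4, and between 0.21 and 0.28 for the other 7 genes.

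Within groups, some of the 9 genes varied together from array to array. On ST 120 min C, SMAD7 (7.05), SMAD6 (5.79), BAMBI (8.14), ID1 (7.97) and ID3 (5.34) were each the lowest of their group, as were SKIL (6.68) and ID2 (4.51), and PMEPA1 (5.00) was the highest. This makes 7 of the 9 genes lowest and 1 highest on that array, where 40.4% of all genes were lowest and 33.3% highest. After group means were removed, BAMBI and ID1 had a Pearson r of 0.91 and a Spearman rho of 0.92 over the 18 arrays, BAMBI and ID3 0.78 and 0.71, and SMAD6 and BAMBI 0.79 and 0.63. Over the 15 arrays outside ST 120 min the r was 0.83, 0.64 and 0.40. Genes measured on 1 array share its RNA extract and its hybridisation, so a shift of a whole array enters all of these values. BAMBI was lowest on the array lettered C in all 4 flagellin groups, which 3.5% of all genes were, and ID1 and ID3 in 3 of the 4, as 15.0% of all genes were. CXCL8, highest on these arrays, had a within-group r of -0.66 with BAMBI, -0.53 with ID1 and -0.51 with ID3, and its part was not tested.

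Over all 18 arrays, group differences included, SMAD7 ran opposite to the immediate-early gene EGR1 (r = -0.78). EGR1 was 10.33 to 11.52 on ST 60 min and 10.51 to 11.40 on EcN 60 min arrays, against 8.89 to 9.27 on mock 60 min arrays, and 9.80, 10.99 and 10.84 on mock 120 min A, B and C. The within-group r was -0.49. ID4 ran with ISG15, an interferon-stimulated gene, over all arrays (r = 0.84) and less so within groups (r = 0.29). ISG15 was 6.41 to 6.62 on ST 60 min and 4.22 to 5.91 on EcN 60 min arrays, against 3.17 to 3.79 on mock 60 min arrays.

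**Figure D4:**
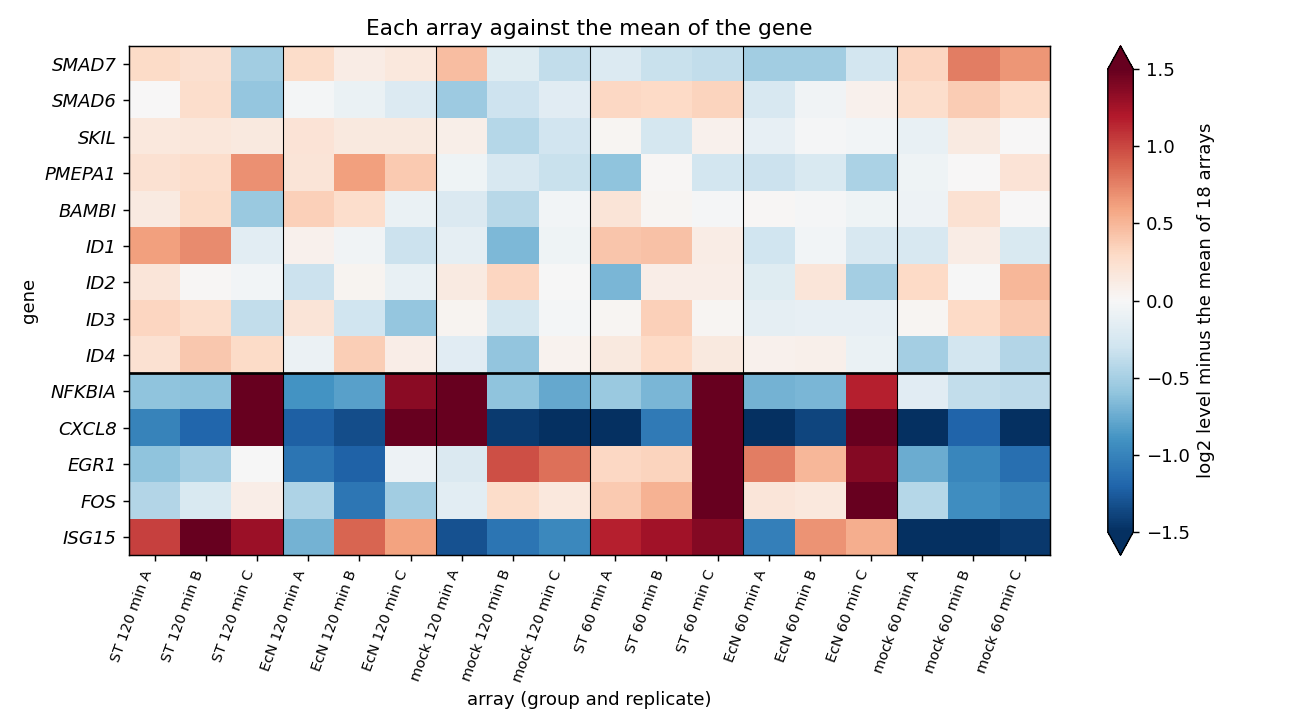
Log2 level of the 9 genes, and of NFKBIA, CXCL8, EGR1, FOS and ISG15 below the line, on each of the 18 arrays, as the difference from the gene's mean over all arrays (colour, from blue for lower to red for higher; values past either end of the scale take its end colour). SMAD7 is above its mean on the mock 60 min arrays and mock 120 min A and below it on all 60 min flagellin arrays. It is also above its mean on the EcN 120 min arrays and ST 120 min A and B, and below it on mock 120 min B and C. On ST 120 min C the genes SMAD7, SMAD6, BAMBI and ID3 are below their means, as are ID1 and ID2 by less.

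The genes whose levels ran most like those of SMAD7 over the 18 arrays were ZCCHC14 (r = 0.87), ZBTB9, PLAGL2 and ZZZ3 (0.85 each) and PHF12 (0.84). For ID1 they were PI4K2A (0.87), TEPSIN (0.83), TXNRD2, RFXANK and WNT10A (0.82 each). For SMAD6 they were TNRC18 (0.79), CPNE2 (0.75), SESN1, ETV1 and TSPAN9 (0.73 each), and for ID3 GAS1 (0.85), DPP10-AS1 (0.78), CHCHD1 (0.77), ARMC7 and CIMIP5 (0.75 each). No other gene of the 9 was among these. The genes named are the highest of all genes tested and include group differences.

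Beyond the 9 genes, 81 of 89 listed ligands, receptors, SMADs, regulators, targets and E proteins were tested. With ST at 60 min 1 of them rose and 4 fell, or 6.17% called, close to the 5.26% of all genes. With EcN at 60 min 4 rose and 5 fell, or 11.1%, beside 6.45% of all genes. The 1 gene called with ST at 120 min is 1.23% of the 81, beside 0.559% of all genes. At 60 min the medians were -0.02 with ST and 0.03 with EcN, and the changes named next are also at 60 min. Among receptors, BMPR2, a type II receptor for BMPs, fell with both, by 0.62 ± 0.10 with ST (adjusted p = 0.00819) and by 0.49 ± 0.10 with EcN (adjusted p = 0.0199). SMAD4, the shared partner SMAD, fell by 0.47 ± 0.12 with ST (adjusted p = 0.0403) and differed by -0.36 ± 0.12 with EcN (adjusted p = 0.0855). SMURF1, a ubiquitin ligase for SMADs and receptors, rose by 0.71 ± 0.15 with EcN (adjusted p = 0.0218) and was 0.53 ± 0.15 above mock with ST (adjusted p = 0.0552). RNF111, a ligase that removes SMAD7 and SKIL proteins, fell by 0.46 ± 0.13 with EcN.

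Of the BMP-induced list 9 genes were tested. At 60 min 1 rose and 2 fell with ST, and 1 rose and 3 fell with EcN, beside 5.26% and 6.45% of all genes called. At 120 min, at an unadjusted p under 0.05, 1 was higher and 3 lower with ST, beside 17.6% of all genes. With EcN 0 were higher and 5 lower, beside 16.5%. The list medians at 120 min were -0.24 and -0.35 with ST and EcN. The homeobox gene DLX2 fell at 60 min by 0.51 with ST and 0.41 with EcN, and the transcription factor GATA2 by 0.66 with both. MSX2, a further homeobox gene, fell by 0.59 ± 0.13 with EcN. TXNIP, a thioredoxin-binding protein, rose by 0.55 with ST and 0.66 with EcN. DLX5 fell by 0.83 ± 0.16 with ST at 120 min (adjusted p = 0.0358), the 1 gene of the 81 called at that time, and differed by -0.88 ± 0.16 with EcN (adjusted p = 0.0597). The ligand BMP6 and the latent TGF-beta binding protein LTBP1 rose with EcN at 60 min, by 0.97 ± 0.28 and 0.45 ± 0.13 (adjusted p = 0.0476 and 0.047).

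Of the 15 pathway calls against mock, 1 held without the arrays lettered C and 7 held without the 5 arrays with high CXCL8. BMPR2 with ST was the 1 call that held in both of these and with each of the 18 arrays left out in turn, at -0.69 to -0.57 (highest adjusted p = 0.042), and at -0.72 without the arrays lettered C (adjusted p = 0.0429). With EcN, BMPR2 was at -0.47 without the arrays lettered C (adjusted p = 0.0901) and -0.39 without the 5 (adjusted p = 0.0649). The calls of SMAD4, RNF111, DLX2, GATA2 and MSX2 ended in both cases, with an adjusted p of 0.0798 or higher without the arrays lettered C and 0.0504 or higher without the 5. Those of SMURF1, TXNIP, BMP6, LTBP1 and DLX5 ended without the arrays lettered C (adjusted p 0.0901 to 0.2) and held without the 5.

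None of 15 tested genes of the list induced by TGF-beta was called in a comparison with mock. JUNB was 1.11 ± 0.59 and 0.82 ± 0.59 above mock at 60 min with ST and EcN, and at 120 min CCN2 was 1.41 ± 0.38 above it with ST (adjusted p = 0.0889) and SNAI1 differed by -0.93 ± 0.22 with EcN (adjusted p = 0.0812). At an unadjusted p under 0.05, 0 of these 15 passed with ST at 60 min and 2 (1 higher, 1 lower) with EcN, beside 22.5% and 24.8% of all genes. At 120 min 4 passed with ST (2 higher, 2 lower) and 1 (lower) with EcN, beside 17.6% and 16.5%. The 3 E proteins, which ID proteins bind, had no change over 0.17 in size against mock. No gene of the 81 was called for ST over EcN, for mock over time or for the change of an effect. Without the 5 arrays with high CXCL8, some were. For mock over time, BMP6, JUNB, LTBP2, SNAI1 and TXNIP were called, all 5 higher at 120 min. For the changes of effect, BMP6 and TXNIP were called with ST, and JUNB and SNAI1 besides with EcN, all downward. Against mock, CDKN2B, FST and FSTL3 with EcN and BMP6 with ST were then called at 60 min, and at 120 min CCN2, SNAI1 and TGFB2 with ST, and DLX5 and SNAI1 with EcN. In this setting 5 of the 81 were higher and 2 lower with EcN at 60 min, beside 993 of all 16111 genes called. With ST 2 were higher and 1 lower, beside 335. At 120 min 0 were higher and 2 lower with EcN, beside 11, and 1 higher and 3 lower with ST, beside 127.

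The largest differences of the other lists that were not called were, with ST, INHBB at 0.45 and GREM1 at -0.35 at 60 min, and INHBA at 0.54, DAND5 at -0.87, TGFBR3 at -0.29, SMAD5 at -0.18 and SKI at -0.36 at 120 min. With EcN they were FST at 0.81 and ACVRL1 at 0.53 at 60 min, and BMP4 at -0.53, FST at 0.43, ACVR2A at 0.27, SMAD5 at -0.16 and PPM1A at 0.29 at 120 min. INHBA and INHBB encode activin subunits, FST (follistatin) binds activins, and GREM1 binds BMPs. Their adjusted p lay between 0.0628 and 0.607. Beside these groups the leukocyte marker CD68 and the housekeeping gene B2M rose with EcN at 60 min by 0.39 and 0.53, B2M rose with ST by 0.39, the intestinal marker LGR5 fell with EcN by 0.59, and LUM, a fibroblast marker, fell by 1.00 with ST at 120 min. All 5 of these marker calls ended without the arrays lettered C (adjusted p 0.0901 to 0.217), and those of LGR5 and LUM held without the 5 arrays. The 6 housekeeping genes tested had a median change of -0.23 with EcN and -0.15 with ST at 60 min, and -0.31 and -0.15 at 120 min. At an unadjusted p under 0.05, 1 was higher and 3 lower with EcN at 60 min, beside 24.8% of all genes. At 120 min 0 were higher and 5 lower with EcN, beside 16.5%. With ST 1 was higher and 1 lower at 60 min, and 0 passed at 120 min. The 2 leukocyte markers tested had a median of 0.14 with EcN at 60 min.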

How the data were processed

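Levels were measured on 18 Affymetrix Human Gene 2.1 ST arrays, 3 in each of 6 groups taken from the sample titles. The authors deposited log2 values, processed by RMA according to the submitters' notes, which name oligo 1.30.0. The values were used as deposited. Of 53617 rows, 23871 had 1 symbol in the platform annotation, updated through the RefSeq gene table of GRCh38.p14 (655 symbols changed), 1842 had several and 27904 none listed. Single-symbol rows above their array's median on at least 3 arrays were kept, and the row with the highest mean stood for its gene, which left 16111 genes.

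All genes were fitted with limma 3.58.1 in R 4.3.3 (lmFit on 6 group means, contrasts, eBayes with default settings, 12 residual and 4.2 prior degrees of freedom). P-values are two-sided and adjusted by Benjamini-Hochberg over all genes within each of 9 comparisons. The fit was tested on simulated data with independent normal noise, a setting without arrays that depart from their groups. After group means were removed, 10 of 45 same-letter pairs across groups correlated above 0.1 (median r 0.044). Of pairs with different letters it was 13 of 90 (median r -0.017). Whether the letters pair the arrays is not settled by these values, and the reported fit used no block. A block by letter was among the other settings, given below.

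The 9 genes, the pathway and marker lists and the alternatives were chosen with earlier results of these data known. The text names the 9 genes in every comparison, the called genes of the pathway lists with the largest difference of each list against mock, the 5 genes most correlated with SMAD7, SMAD6, ID1 and ID3, and the genes that mark arrays departing from their groups.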

Additional observations from a re-analysis of the deposited data

How the results depend on the processing

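Every comparison was refitted under 28 other settings: array medians centred, no filter or a stricter one (9 arrays), the mean of a gene's rows, the compared groups alone, trend and robust settings, array weights, the replicate letter as a block, each array left out in turn, the 6 arrays lettered C left out, and the 5 arrays with high NFKBIA and CXCL8 left out. No called change turned its direction under any of them. Under centring, both other filters, mean rows, the compared groups alone, array weights and the replicate block, each comparison kept its number of called genes (with the block 1 for EcN and 2 for ST over mock at 60 min, and 0 elsewhere). Trend and robust settings called 1 gene, ID4, for ST over mock at 120 min, in place of 0.

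Leaving out 1 array gave between 0 and 2 called genes for EcN and for ST over mock at 60 min, 0 to 1 for EcN and 0 to 2 for ST over mock at 120 min, 0 to 1 for mock over time, and 0 to 3 for the change of either effect. Without the 6 arrays lettered C the count was 0 for both flagellins at 60 min. Without the 5 arrays it was 2 for EcN and 1 for ST at 60 min, 1 for ST at 120 min, 2 for mock over time and 1 for the change of each effect. ST over EcN gave 0 of the 9 genes under every setting. Fewer arrays also mean fewer degrees of freedom, and the cause of each lost or gained call was not tested. For the called pathway and marker genes, leaving out each array, the arrays lettered C and the 5 arrays was added after seeing the data, and of the 15 pathway calls 1 held in every one of these fits. Over the 28 settings SMAD7 at 60 min ranged from -1.01 to -0.80 with ST and from -1.15 to -0.93 with EcN, and ID4 with ST from 0.55 to 0.67. Over all 16111 genes, the 1039 called for EcN and 848 for ST over mock at 60 min became 14 and 32 without the arrays lettered C and 993 and 335 without the 5 arrays. At 120 min the 10 for EcN and 90 for ST became 124 and 0 without the arrays lettered C and 11 and 127 without the 5. Mock over time and the changes of the EcN and ST effects, each with 0 called, had 809, 213 and 106 without the 5. Over all 28 settings and the reported one, these totals ran from 0 to 2176 for EcN and 32 to 1957 for ST at 60 min, 0 to 1177 and 0 to 905 at 120 min, 0 to 979 for mock over time, 0 to 556 and 0 to 475 for the changes of the EcN and ST effects, and 0 to 1 and 0 to 34 for ST over EcN at 60 and 120 min.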

Other observations

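The flagellin groups were not tested against each other over time, and their levels are given here as values. PMEPA1 was 4.55 to 5.00 on ST 120 min arrays, against 3.72 to 4.34 on ST 60 min arrays, and 4.51 to 4.93 on EcN 120 min arrays, against 3.84 to 4.09 on EcN 60 min arrays. SMAD7 was 7.68 to 7.84 on EcN 120 min arrays, against 7.05 to 7.29 on EcN 60 min arrays. With ST it was 7.86 and 7.81 on the 120 min arrays A and B, above the 7.20 to 7.36 of ST 60 min, and 7.05 on C, below it. SKIL at 120 min was 6.68 or higher on all 6 flagellin arrays, against at most 6.60 on any flagellin array at 60 min. In mock, PMEPA1 and SKIL had lower means at 120 min, at 4.11 and 6.33, than at 60 min, at 4.37 and 6.55.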
